A study of Mus musculus with 41 samples.

Results

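The genes described here are 33 transcripts of the mouse p53 response: Trp53, which encodes p53 itself, and 32 genes long known as its targets. They were picked by gene symbol from the count table, and Cdkn1a and Perp were kept out of the list. All 33 were in the table of 24410 gene symbols, and all 33 were among the 15204 genes with enough counts to be tested. R1-iCas9 cells are mouse embryonic stem cells in which doxycycline turns on the nuclease Cas9. After Cas9 induction they received guide RNAs and were differentiated towards neural progenitors through a WNT activator, retinoic acid and a Smoothened agonist, and bulk RNA was sequenced at days 7, 9 and 11. The groups are Eed KO, Ezh2 KO, Brd8 KO, Nr6a1 KO and NT, each at all 3 days. Every KO group received a pool of 5 synthetic guides against the named gene, and NT, the control, received a non-targeting guide, with Cas9 induced in NT too. Eed and Ezh2 encode core subunits of the histone methyltransferase PRC2. The Brd8 protein belongs to the TIP60 histone acetyltransferase complex, and the Nr6a1 protein is a nuclear receptor with no known ligand.

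KO cells are pools of edited cells and not clones, and the labels do not give the share of edited alleles. The KO guides direct Cas9 to cut the genome and the NT guide does not, so an effect of cutting and an effect of losing the gene cannot be told apart. Groups had 3 libraries, except Nr6a1 KO at every day and Brd8 KO at day 9, which had 2. The labels do not state that replicates came from separate cultures, so p-values measure only the spread between these libraries. Libraries held 8581282 to 38240227 estimated counts (median 12721067). All 10 neural progenitor markers looked up, Sox1, Sox2, Nes and Olig2 among them, were detected in every group. At day 11 their summed level was 1868 to 2013 CPM (counts per 1000000 after scaling between libraries) in Eed KO, 2127 to 2244 in Brd8 KO, 2213 to 2431 in Ezh2 KO, 2330 to 2441 in Nr6a1 KO and 2636 to 2768 in NT, so that every KO lay below NT. At day 11, NT replicate 3 and Eed KO replicate 3 correlated with every other library of their group at under 0.95 (low-agreement libraries). Values without them are given beside the results they change most. RNA of the targeted gene was not lower by the test in any KO group at any day: Eed was 16.4 to 19.4 CPM in Eed KO at day 11 against 13.6 to 15.4 in NT, and Brd8 was 54.1 to 66.5 in Brd8 KO against 61 to 80.3. Some groups lay wholly below NT without passing: Nr6a1 in Nr6a1 KO at day 7 (114 to 132 against 171 to 182 CPM, log2 fold change -0.51 with a 95% interval of -0.77 to -0.24, adjusted p = 0.121) and day 9 (55.9 to 65.3 against 68.5 to 76.8), and Brd8 in Brd8 KO at day 7 (87.8 to 94.7 against 99.6 to 113). Ezh2 RNA was higher in Ezh2 KO at day 11 (153 to 190 against 118 to 152 CPM, adjusted p = 0.00736). Small insertions and deletions can leave the RNA level as it was, so these levels do not check the labels, and KO is used here as the labels' name for a group.

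p53 is a transcription factor that is held at a low level by Mdm2, a ubiquitin ligase whose gene is itself a p53 target, so that the pair forms a negative feedback loop. When DNA is broken or other stress acts, p53 is stabilised and switches on genes that halt the cell cycle, repair DNA, change metabolism or start apoptosis. Many of these genes keep a basal level in unstressed stem cells and progenitors, and several are also controlled by the cell cycle or by other factors.

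p53 binds pairs of a 10-base half-site. Promoters were taken from RefSeq (GRCm38.p6), as 250 bases before and 50 after a transcription start, and 26 of the 33 genes had at least 1 (36 promoters). Trp53inp1, Pmaip1, Zmat3, Tnfrsf10b, Rrm2b, Xpc and Ddb2 had no entry. The consensus half-site, which reads the same on both strands, was found in 12 of these 26 genes (46.2%), against 2582 of 27025 genes of the whole table (9.55%). Over promoters the shares were 36.1% of 36 and 8.36% of 32851. A full site of a pair of consensus half-sites with a spacer of 0 to 13 bases was found in 0 of the 26 genes and in 0.074% of all genes. The windows below show every half-site found in these promoters, 5′ to 3′ on the strand of the gene, with the half-site in capitals and its position counted from the start.
Ccng1, position -185, chr11:40755452-40755481, minus strand, between genes: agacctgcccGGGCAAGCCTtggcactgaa
Mdm2, position -186, chr10:117710925-117710954, minus strand, between genes: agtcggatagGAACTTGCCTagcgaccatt
Trp53, position -75, chr11:69580274-69580303, plus strand, between genes: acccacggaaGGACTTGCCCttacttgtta
Gtse1, position 10, chr15:85859945-85859974, plus strand, in an untranslated exon: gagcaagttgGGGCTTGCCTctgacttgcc
Gadd45a, position -40, chr6:67037428-67037457, minus strand, in an exon of a noncoding transcript of the gene: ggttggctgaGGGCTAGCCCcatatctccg
Bax, position -201, chr7:45467080-45467109, minus strand, in an intron of Gm45808: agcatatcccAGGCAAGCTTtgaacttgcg
Aen, positions 11 and -121 of its 2 promoters, chr7:78895927-78895956, plus strand, in an untranslated exon: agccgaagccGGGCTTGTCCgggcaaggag
Ei24, position -10, chr9:36797325-36797354, minus strand, in an untranslated exon: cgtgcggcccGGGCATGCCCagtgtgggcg
Rps27l, position -210, chr9:66946193-66946222, plus strand, in an intron of the gene: ctttgggctcGGGCTTGCTTtccttcaggc
Rps27l, position -107, chr9:66946296-66946325, plus strand, in an intron of the gene: gggcttgttgAGACTTGTCCgggcgacacg
Sesn1, position -173, chr10:41887256-41887285, plus strand, in an intron of the gene: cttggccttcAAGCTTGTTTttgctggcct
Polk, position -231, chr13:96519399-96519428, minus strand, in an intron of the gene: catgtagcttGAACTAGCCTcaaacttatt
Ddit4l, position -90, chr3:137623572-137623601, plus strand, in an intron of the gene: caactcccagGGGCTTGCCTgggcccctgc
In Ccng1, Gtse1 and the second Rps27l window, the 10 lower-case bases before the capitals match the half-site with 1 mismatch, so that the 20 bases form a near-complete site. A 20-base site with at most 2 mismatches and no spacer was found in these 3 genes (11.5% of 26) and in 0.94% of all genes. That search was added after the data were seen. A match is a description of the letters and shows no binding.

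The whole 250 bases before the start are printed for Ccng1 and Mdm2, since both carry a half-site at nearly the same distance from the start, and Ccng1 rose in 5 of the 12 KO comparisons below and Mdm2 in 0. The 2 promoters are not alike beyond the half-site. The best match to a full site without a spacer had 1 mismatch in Ccng1 and 5 in Mdm2. The 2 genes were picked with their changes known, so this contrast cannot link sequence to change, and such a link was not tested. Sequence outside the promoters was not searched, so sites elsewhere in either gene are not covered.
Ccng1, chr11:40755287-40755536, minus strand: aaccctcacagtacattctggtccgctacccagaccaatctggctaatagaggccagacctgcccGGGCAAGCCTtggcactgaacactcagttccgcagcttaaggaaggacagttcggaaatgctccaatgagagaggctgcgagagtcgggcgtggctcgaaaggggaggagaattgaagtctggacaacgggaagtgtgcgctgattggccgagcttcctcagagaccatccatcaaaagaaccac
Mdm2, chr10:117710759-117711008, minus strand: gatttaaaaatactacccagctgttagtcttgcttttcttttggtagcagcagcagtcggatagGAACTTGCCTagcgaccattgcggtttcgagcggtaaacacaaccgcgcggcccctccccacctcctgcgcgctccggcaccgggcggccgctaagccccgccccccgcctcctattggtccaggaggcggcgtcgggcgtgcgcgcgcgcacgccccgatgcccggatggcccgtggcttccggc

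In NT cells at day 7 the 33 genes spanned a wide range of levels. Per kilobase of exon, Ccng1, which encodes cyclin G1, was highest at 156 CPM per kilobase, followed by the kinase gene Plk3 at 68, Trp53 at 36 and the antiproliferative gene Btg2 at 35.8. Gtse1 (35.4) and Trp53inp1 (34.3) lay close below. Fas, the gene of a death receptor, was lowest at 0.343 CPM per kilobase, with 0 to 38 counts in each of the 41 libraries. Ddb2 (1.2) and Epha2 (1.45) were the next lowest. In CPM, 30 of the 33 had a mean of at least 2 in every group.

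Most of these genes fell with time in the NT cells. From day 7 to day 11, 21 of the 33 fell and 3 rose, where 23.3% of all tested genes fell and 21.9% rose. The median log2 fold change was -0.52 for the 33 genes and -0.00 for all genes. Plk3 fell the most among the well expressed genes, from 180, 168 and 168 CPM at day 7 to 21.4, 19.4 and 17.5 CPM at day 11 (log2 fold change -3.14 ± 0.155, SE; adjusted p = 7.82e-19). Gtse1, whose protein accumulates in the later cell cycle and binds p53, fell from 96.9 ± 11.4 to 24.9 ± 1.33 CPM (SD, n = 3 each; -1.96 ± 0.133, adjusted p = 3.93e-15). Pidd1, a death-domain protein that activates caspase-2, fell from 45.4 ± 3.69 to 12.2 ± 6.58 CPM (-1.91 ± 0.209, adjusted p = 7.98e-10, and -2.44 without NT replicate 3 of day 11). The groups did not overlap for any of these 3 genes. Pmaip1, which encodes the apoptosis activator Noxa, went from 6.38, 5.2 and 3.8 CPM to 0.387, 0.464 and 0 CPM (-4.10 ± 0.588, adjusted p = 2.73e-07). The 0 is from NT replicate 3, whose depth allows a level of up to 0.314 CPM. Bax, a pore-forming apoptosis effector, fell by 1.12 on the log2 scale, Tnfrsf10b by 0.99, Ccng1 by 0.94, Trp53 by 0.77 and Mdm2 by 0.48. For Bax, NT replicate 3 of day 11 was far lower (9.15 CPM) than replicates 1 and 2 (31.8 and 27.4). Its log2 fold change ranged from -1.44 to -0.75 over the 13 alternatives tried and passed in each. The 3 genes that rose were Sesn1 (0.81 ± 0.166), which encodes a stress-induced inhibitor of the growth kinase mTORC1, the ribonucleotide reductase subunit gene Rrm2b (0.48 ± 0.158) and Trp53inp1 (0.34 ± 0.0862), a cofactor of p53. Without NT replicate 3 of day 11 the rise of Rrm2b was lost (adjusted p = 0.228). Of 20 proliferation genes (Mki67, Top2a, Mcm2 and others) 20 fell over the same interval, their summed level going from 3528 to 3768 CPM in the NT libraries of day 7 to 1135 to 1200 CPM at day 11. Their part in the fall of the p53 targets was not tested. In bulk RNA, fewer cells that express a gene and less RNA per cell cannot be told apart, here and in every comparison below.

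**Figure D1:**
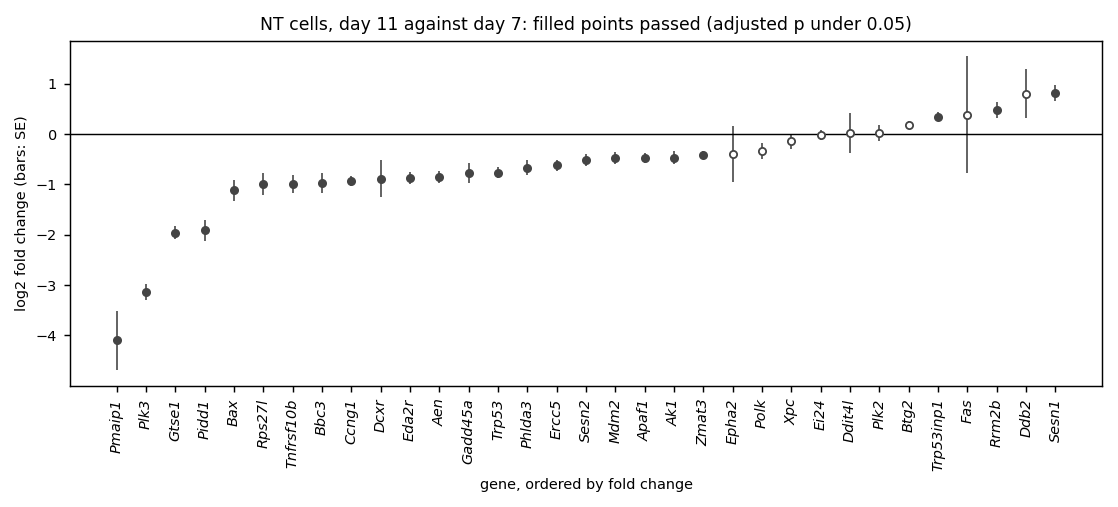
Log2 fold change of each of the 33 genes in NT cells at day 11 against day 7, with SE bars, ordered from lowest to highest; filled points passed at an adjusted p under 0.05 and open points did not. Of the 33 points, 24 are filled, 21 of them below 0 and 3 above.

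Each KO was compared with NT of the same day, which asks how expression in cells given each pool of guides differs from NT as differentiation proceeds. In Eed KO cells 6 of the 33 genes rose and 1 fell at day 7, against 2.9% and 5.76% of all tested genes. At day 9, 2 rose and 0 fell, against 2.99% and 2.16%. At day 11, 16 rose and 1 fell, against 13.3% and 10.6%. The median log2 fold change of the 33 genes was 0.18 at day 7, 0.17 at day 9 and 0.47 at day 11, where the median of all genes was 0, 0.01 and 0.02. Without the low-agreement libraries, 12 of the 33 rose at day 11 and 0 fell. The day 7 count was 7 with all libraries and 1 without Eed KO replicate 2 or without NT replicate 3, when Ccng1 alone was still called. The day 9 count was 2 with all libraries, 0 without Eed KO replicate 2 or 3 or NT replicate 1 or 3, and 4 without Eed KO replicate 1.

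In Ezh2 KO cells, 1 of the 33 genes rose and 0 fell at day 7 (all genes 0.0855% and 0.0658%), and at day 11 4 rose and 0 fell (all genes 5.22% and 2.7%). At day 9 no gene of the whole table passed (0%), and DESeq2 called 0 of the 33. By edgeR 0 of the 33 had an unadjusted p under 0.05 at that day, against 4.51% of all genes. In Brd8 KO cells, 0 rose and 1 fell at day 7 (all genes 1.3% and 3.45%), 9 rose and 0 fell at day 9 (7.72% and 7.81%), and 9 rose and 0 fell at day 11 (10.3% and 7.48%). The medians in Brd8 KO cells were 0.10, 0.29 and 0.18 log2 units at days 7, 9 and 11. At day 9 without Brd8 KO replicate 2, which leaves 1 Brd8 KO library that is assumed to vary like the other groups, 2 of the 33 were called, Eda2r and Gtse1. In Brd8 KO at day 7, DESeq2 called 4 of the 33 (3 rose and 1 fell) where edgeR called 1.

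In Nr6a1 KO cells, 0 of the 33 genes passed at any day, where 0.145% (day 7), 0.151% (day 9) and 0.0789% (day 11) of all genes did. DESeq2 called 0 of the 33 at each day. By edgeR, 5, 6 and 2 of the 33 had an unadjusted p under 0.05 at days 7, 9 and 11, against 7.38%, 7.12% and 8.18% of all genes. The count of day 11 is near that share. Of those 13 values, 11 were negative, 1 of them at day 11. The medians were -0.07, -0.14 and -0.01 log2 units. The day 11 comparisons of the 4 KO genotypes share the same 3 NT libraries, as do those of each other day, so they are not independent of each other.

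**Figure D2:**
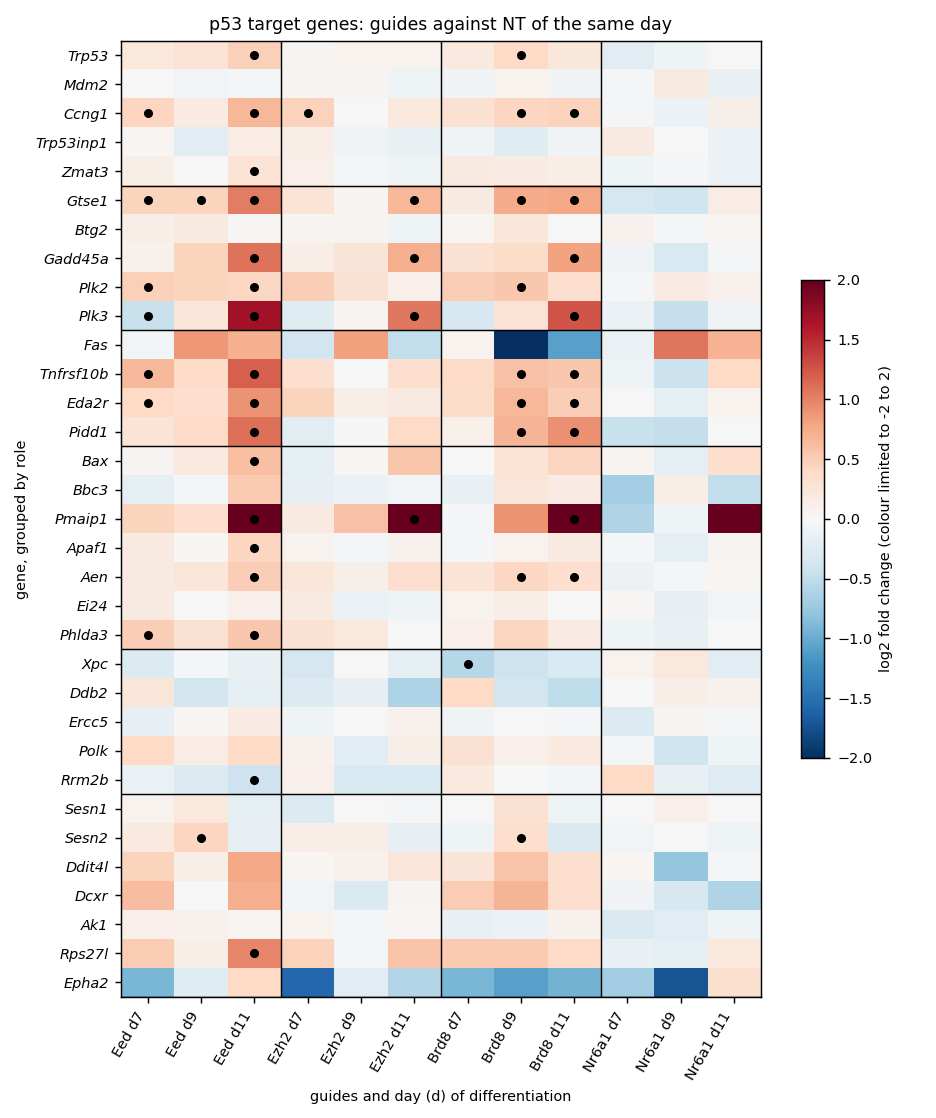
Log2 fold change of the 33 genes (rows, grouped by role) in each KO against NT of the same day (columns), with colour from blue (lower) to red (higher) limited to -2 to 2; black dots mark an adjusted p under 0.05. Of the 33 genes, 19 carry at least 1 dot, most of them in the columns of Eed KO at day 11 and Brd8 KO at days 9 and 11, and the Nr6a1 KO columns carry 0.

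Among the 33 genes, 17 (51.5%) rose in at least 1 of the 12 KO comparisons, where 19.4% of all tested genes did, and 14 (42.4%) passed in none, where 64% of all tested genes did. Shares of all genes that rose are repeated beside the counts by role below, and with 4 to 7 genes in a role a count is a description. Gtse1 rose in 6, Ccng1 in 5, and Eda2r and Tnfrsf10b in 4 each. Plk3 rose in 3 and fell in 1. Pmaip1, Gadd45a, Aen, Plk2 and Pidd1 passed in 3 each. Genes that passed in none include Mdm2, Btg2, Bbc3, Ei24, Trp53inp1, Sesn1 and the repair genes Ddb2, Ercc5 and Polk. Ddb2 shares exon sequence with Acp2 on the opposite strand, which had 359 to 2640 counts per library against 13 to 161 for Ddb2. The strand used in counting is not given, so the level of Ddb2 and its lack of a call are uncertain.

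Of Trp53 and the 4 genes that act back on p53 or on its RNA targets, 3 of 5 rose in Eed KO cells at day 11 (all genes 13.3%), 2 in Brd8 KO cells at day 9 (all genes 7.72%) and 1 in Brd8 KO cells at day 11 (all genes 10.3%). Ccng1 is a direct target that recruits a phosphatase to Mdm2. Its level at day 7 was 717, 797 and 706 CPM in Eed KO, 771, 825 and 663 in Ezh2 KO, 750, 693 and 595 in Brd8 KO, 547 and 532 in Nr6a1 KO and 528, 571 and 545 in NT. Each Eed, Ezh2 and Brd8 KO library of that day was above every NT library. The change passed in Eed KO (log2 fold change 0.43 ± 0.102, adjusted p = 0.00443), where it passed in each of the 13 alternatives tried, and in Ezh2 KO (0.46 ± 0.102, adjusted p = 0.0418), where it was lost in 5 of 13, without Ezh2 KO replicate 1 or 2 or any of the 3 NT libraries (adjusted p up to 0.455). At day 9, Ccng1 stood at 403, 424 and 526 CPM in Eed KO, 529 and 554 in Brd8 KO, 376, 414 and 411 in Ezh2 KO, 334 and 404 in Nr6a1 KO and 372, 446 and 384 in NT. Only the Brd8 KO libraries lay wholly above NT (0.43 ± 0.113, adjusted p = 0.00637), and without Brd8 KO replicate 2 the adjusted p was 0.0888. At day 11 the levels were 419, 424 and 523 CPM in Eed KO, 415, 351 and 419 in Brd8 KO, 363, 320 and 308 in Ezh2 KO, 314 and 308 in Nr6a1 KO and 297, 259 and 303 in NT. Eed KO (0.67 ± 0.103, adjusted p = 5.11e-06) and Brd8 KO (0.47 ± 0.103, adjusted p = 0.000993) passed.

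Trp53 RNA at day 11 was 101, 111 and 144 CPM in Eed KO, 108, 100 and 91.6 in Brd8 KO, 92.0, 96.3 and 81.2 in Ezh2 KO, 80.9 and 88.2 in Nr6a1 KO and 83.9, 94.6 and 77.6 in NT. The highest value was in Eed KO replicate 3, one of the low-agreement libraries. The change in Eed KO was 0.47 ± 0.111 (adjusted p = 0.00155). With the low-agreement libraries left out it was 0.24, with an adjusted p of 0.184. In Brd8 KO at day 9, Trp53 was 117 and 146 CPM against 99.1, 99.1 and 101 in NT (0.40 ± 0.121, adjusted p = 0.0188), a call that was lost without Brd8 KO replicate 2 (adjusted p = 0.4) and without NT replicate 1 (adjusted p = 0.0511). At day 7 Trp53 was 188, 163 and 156 CPM in Eed KO and 162, 150 and 125 in NT, which overlap, and no KO passed at that day. Regulation of p53 acts mostly on the protein, which was not measured.

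Mdm2 did not pass in any KO comparison. At day 11 it was 92.2, 84.9 and 110 CPM in Eed KO, 99.7, 87.9 and 83.8 in Ezh2 KO, 98.9, 80.4 and 98.1 in Brd8 KO, 90.6 and 85.3 in Nr6a1 KO and 101, 81.9 and 110 in NT. All 5 genotypes overlapped. The difference in Eed KO was -0.03 log2 units, with a 95% interval of -0.26 to 0.21, and in Brd8 KO -0.08 with an interval of -0.31 to 0.16. At day 7 it was 116, 151 and 140 CPM in Eed KO and 128, 154 and 127 in NT, again overlapping. Zmat3, which encodes an RNA-binding protein, rose in Eed KO at day 11 from 250.9 ± 22.8 to 303 ± 22.4 CPM (adjusted p = 0.00424), a call lost with only the groups compared in the fit (adjusted p = 0.0692). Trp53inp1, 311 ± 43.2 CPM there against 281 ± 17.4, did not pass.

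The 5 cell cycle and growth arrest genes had the highest median of the groups in Eed KO at day 11 (1.02 log2 units, 4 of 5 rose, all genes 13.3%), in Brd8 KO at day 11 (0.78, 3 rose, all genes 10.3%) and in Ezh2 KO at day 11 (0.67, 3 rose, all genes 5.22%). Gtse1 at day 7 stood at 120, 137 and 139 CPM in Eed KO, 106, 119 and 127 in Ezh2 KO, 114, 114 and 102 in Brd8 KO, 64.7 and 85.9 in Nr6a1 KO and 95.2, 109 and 86.5 in NT. At day 9 it was 58.3, 62.5 and 66.2 in Eed KO, 76.5 and 75.7 in Brd8 KO, 43.1, 47.9 and 50.6 in Ezh2 KO, 29.6 and 40.1 in Nr6a1 KO and 46.3, 51.9 and 38.1 in NT. At day 11 it was 45.1, 49.3 and 57.8 in Eed KO, 47.4, 43.6 and 37 in Brd8 KO, 38.3, 44.5 and 35.8 in Ezh2 KO, 25.8 and 29.4 in Nr6a1 KO and 25.1, 26.1 and 23.4 in NT. The fold over NT was 1.36 in Eed KO at day 7 (adjusted p = 0.0171), 1.37 at day 9 (adjusted p = 0.029) and 2.03 at day 11 (adjusted p = 2.69e-07). In Brd8 KO it was 1.67 at day 9 (adjusted p = 0.000212) and 1.72 at day 11 (adjusted p = 3.62e-05), and in Ezh2 KO 1.59 at day 11 (adjusted p = 0.000801). At day 11 every library of these 3 genotypes was above every NT library. The call in Eed KO was lost at day 7 without Eed KO replicate 2 or 3 or NT replicate 1 or 3 (adjusted p up to 0.119), and at day 9 without the same-numbered libraries of that day (adjusted p up to 0.223) or with only the groups compared (0.0604). The Brd8 KO and Ezh2 KO calls, and that of Eed KO at day 11, passed in every alternative tried.

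Plk3, a stress-responsive polo-like kinase, was lower than NT in Eed KO cells at day 7 and higher at day 11. At day 7 it was 122, 108 and 149 CPM in Eed KO and 180, 168 and 168 in NT (-0.45 ± 0.137, adjusted p = 0.0336), a call lost without Eed KO replicate 1 or 2 or any of the 3 NT libraries (adjusted p up to 0.205). Ezh2 KO (148, 135 and 155) and Brd8 KO (135, 116 and 163) did not pass at that day, with all their libraries below NT, and Nr6a1 KO was 149 and 169. At day 9 the libraries spanned 87.9 to 94.6 CPM in Eed KO, 75.5 to 89.3 in Ezh2 KO, 85.4 to 104 in Brd8 KO, 49.5 to 63.5 in Nr6a1 KO and 76.7 to 78.5 in NT, and none passed. At day 11 Plk3 was 50.2, 62.4 and 76.1 CPM in Eed KO, 38.4, 52.1 and 48.8 in Brd8 KO, 43.1, 40.0 and 38.5 in Ezh2 KO, 14.8 and 22.3 in Nr6a1 KO and 21.4, 19.4 and 17.5 in NT. The 3 genotypes Eed KO, Brd8 KO and Ezh2 KO lay wholly above NT, and Nr6a1 KO overlapped it. The log2 fold changes were 1.68 ± 0.152 (Eed KO, adjusted p = 2.83e-10), 1.25 ± 0.153 (Brd8 KO, adjusted p = 1.54e-07) and 1.05 ± 0.152 (Ezh2 KO, adjusted p = 1.31e-05), and each passed in all 13 alternatives. In each of the 5 genotypes every library of day 11 was below every library of day 7, and at day 11 NT and Nr6a1 KO were lowest. An exon of Tctex1d4 overlaps Plk3 on the other strand, and that gene had 0 to 2 counts per library.

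Gadd45a, which binds the clamp protein PCNA and slows the G2 to M transition, was 28.9, 30.2 and 25.5 CPM in Eed KO at day 11, 29.3, 22.5 and 17.6 in Brd8 KO, 18.9, 25.9 and 21.3 in Ezh2 KO, 12.1 and 14.1 in Nr6a1 KO and 13.2, 12.5 and 14.2 in NT. The 3 former genotypes lay above NT in every library. Fold changes were 2.12 in Eed KO (adjusted p = 7.68e-05), 1.74 in Brd8 KO (adjusted p = 0.00376) and 1.66 in Ezh2 KO (adjusted p = 0.0158). The Brd8 KO call was lost without Brd8 KO replicate 1 (adjusted p = 0.0618), and the Ezh2 KO call without Ezh2 KO replicate 2 (adjusted p = 0.106) or NT replicate 2 (adjusted p = 0.0552). The gene shares exon sequence with E230016M11Rik on the opposite strand (14 to 167 counts per library), and whether counting used strand is not given in the sources used here. Plk2, a polo-like kinase gene, rose in Eed KO at days 7 (0.48 ± 0.153, adjusted p = 0.0416) and 11 (adjusted p = 0.0432) and in Brd8 KO at day 9 (0.54 ± 0.169, adjusted p = 0.0227). Its libraries at day 11 were 69, 84.6 and 59.9 CPM in Eed KO against 51.3, 58.4 and 50.8 in NT, which do not overlap. Each Plk2 call was lost with 1 library left out: in Eed KO at day 7 without Eed KO replicate 1 or 2 or any NT library (adjusted p up to 0.243), at day 11 without Eed KO replicate 1 or 2 or NT replicate 1 or 3 (up to 0.252) or with only the groups compared (0.0742), and in Brd8 KO without either Brd8 KO library or NT replicate 3 (up to 0.114). Btg2 did not pass in any KO and differed from NT at day 11 by 0.02 log2 units in Eed KO (95% interval -0.15 to 0.19).

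**Figure D3:**
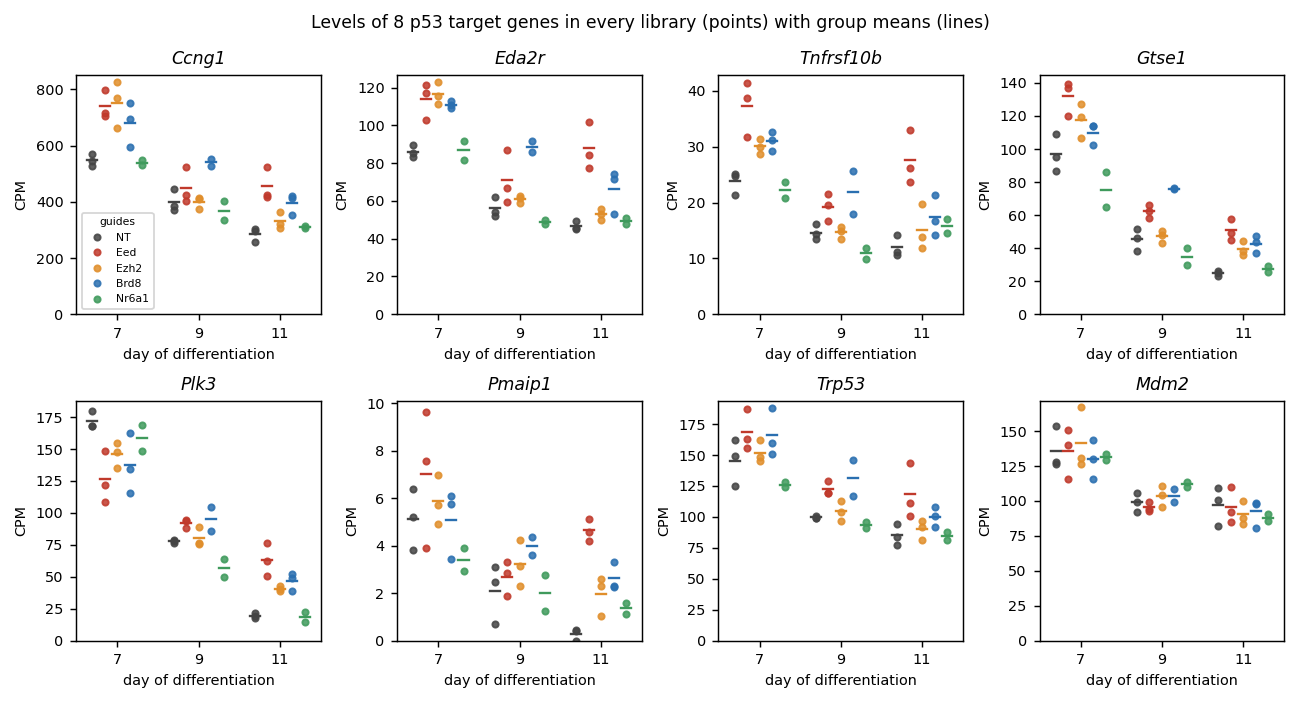
Level of 8 of the genes in every library (points, CPM) by day, with colours for the genotype and short lines for the group mean; each vertical axis starts at 0. Ccng1, Eda2r, Tnfrsf10b and Gtse1 have lower means at day 11 than at day 7 in every genotype and lie higher in Eed KO than in NT at day 11, Pmaip1 is lowest in NT at day 11, and Mdm2 overlaps between genotypes there.

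The 4 genes of death receptors and their signalling were the receptor genes Tnfrsf10b, Eda2r and Fas, together with Pidd1. Of these, 3 (Tnfrsf10b, Eda2r and Pidd1) rose in Eed KO at day 11 (all genes 13.3%) and in Brd8 KO at days 9 and 11 (all genes 7.72% and 10.3%). In Eed KO at day 7, 2 rose, Tnfrsf10b and Eda2r (all genes 2.9%). Tnfrsf10b encodes the mouse receptor for the death ligand TRAIL. At day 7 it was 31.7, 38.7 and 41.4 CPM in Eed KO, 28.8, 30 and 31.5 in Ezh2 KO, 32.6, 31.2 and 29.2 in Brd8 KO, 20.8 and 23.8 in Nr6a1 KO and 24.7, 25.2 and 21.4 in NT. At day 9 its range was 16.7 to 21.5 CPM in Eed KO, 13.4 to 15.7 in Ezh2 KO, 18.0 and 25.7 in Brd8 KO, 9.95 and 11.9 in Nr6a1 KO and 13.4 to 16.1 in NT. At day 11 it was 26.2, 23.6 and 33.0 in Eed KO, 21.4, 16.6 and 14.1 in Brd8 KO, 13.9, 19.7 and 11.9 in Ezh2 KO, 14.5 and 17.0 in Nr6a1 KO and 10.6, 11.2 and 14.2 in NT. Eed KO lay above NT without overlap at each of the 3 days. So did Ezh2 KO at day 7, Brd8 KO at days 7 and 9 and Nr6a1 KO at day 11. Tnfrsf10b passed in Eed KO at day 7 (0.64 ± 0.173, adjusted p = 0.0143) and day 11 (1.20 ± 0.18, adjusted p = 3.48e-06). In Brd8 KO it passed at day 9 (0.59 ± 0.194, adjusted p = 0.0334) and at day 11 (0.54 ± 0.182, adjusted p = 0.0336), where 1 Brd8 KO library lay within the NT range. The day 7 call was lost without Eed KO replicate 2 or 3 or NT replicate 3 (adjusted p up to 0.083). In Brd8 KO the day 9 call was lost without Brd8 KO replicate 2 or NT replicate 1 or 3 (up to 0.515), and the day 11 call without Brd8 KO replicate 1 or NT replicate 1 or 2 (up to 0.245). Both were also lost with only the groups compared (0.0661 and 0.203) and with no low-count filter (0.0523 and 0.0602).

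Eda2r, a receptor of the ectodysplasin family on the X chromosome, was 103, 117 and 122 CPM in Eed KO at day 7, 116, 123 and 112 in Ezh2 KO, 111, 109 and 113 in Brd8 KO, 81.8 and 92.0 in Nr6a1 KO and 83.5, 89.7 and 85.3 in NT. At day 9 it was 59.4, 66.8 and 86.9 in Eed KO, 85.9 and 91.6 in Brd8 KO, 58.9, 61.3 and 62.8 in Ezh2 KO, 48.0 and 50.0 in Nr6a1 KO and 51.9, 62.0 and 54.2 in NT. At day 11 it was 77.7, 84.3 and 102 in Eed KO, 74.4, 53.1 and 71.4 in Brd8 KO, 56.0, 53.1 and 50.0 in Ezh2 KO, 47.6 and 51.1 in Nr6a1 KO and 49.3, 45.8 and 45.3 in NT. Eed KO and Ezh2 KO were above NT without overlap at days 7 and 11, and Brd8 KO at all 3 days. Ezh2 KO did not pass at any day. The fold was 1.32 in Eed KO at day 7 (adjusted p = 0.0189) and 1.87 at day 11 (adjusted p = 1.99e-07), and in Brd8 KO 1.58 at day 9 (adjusted p = 0.00024) and 1.41 at day 11 (adjusted p = 0.00174). Both Brd8 KO calls and the Eed KO call of day 11 passed in every alternative tried, and the Eed KO call of day 7 was lost without Eed KO replicate 2 or 3 or NT replicate 1 or 3 (adjusted p up to 0.0782).

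Pidd1 at day 11 was 25.7, 22.7 and 29.0 CPM in Eed KO, 23.2, 22.9 and 21.5 in Brd8 KO, 17.2, 15.3 and 15.2 in Ezh2 KO, 12.4 and 11.4 in Nr6a1 KO and 7.74, 9 and 19.7 in NT. NT replicate 3, a low-agreement library, stood apart from the other two, and the Eed KO and Brd8 KO libraries were above it all the same. The change was 1.10 ± 0.209 in Eed KO (adjusted p = 0.000123) and 0.91 ± 0.21 in Brd8 KO (adjusted p = 0.00173). Without NT replicate 3 it was 1.62 and 1.43, and with only the groups compared the Brd8 KO call was lost (adjusted p = 0.0596). At day 9 Pidd1 was 27.9 and 33.5 CPM in Brd8 KO against 15.7, 22.8 and 19.2 in NT (0.67 ± 0.219, adjusted p = 0.0297), a call lost without Brd8 KO replicate 2 or NT replicate 1 or 3 (adjusted p up to 0.281). Fas did not pass anywhere, at levels too low for most differences to be seen: its libraries spanned 1.02 to 2.52 CPM in Eed KO at day 11 and 0.852 to 1.02 in NT.

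Of the 7 genes that act in apoptosis at the mitochondrion, the apoptosome or the nucleus, 5 rose in Eed KO at day 11 (all genes 13.3%), 2 in Brd8 KO at day 11 (all genes 10.3%) and 1 in Ezh2 KO at day 11 (all genes 5.22%). Pmaip1 showed the largest fold of all 33 genes in each of these 3 comparisons, at a low level. At day 11 it was 4.21, 4.59 and 5.14 CPM in Eed KO, 2.28, 3.33 and 2.27 in Brd8 KO, 1.05, 2.29 and 2.59 in Ezh2 KO, 1.12 and 1.59 in Nr6a1 KO and 0.387, 0.464 and 0 in NT. Every KO library was above every NT library, and the NT libraries held 10 counts of the gene in all, against 206 in Eed KO. The log2 fold change was 3.95 ± 0.588 in Eed KO (adjusted p = 3.1e-06) and 3.13 ± 0.594 in Brd8 KO (adjusted p = 0.000159). It was 2.75 in Ezh2 KO (adjusted p = 0.00195), and in Nr6a1 KO it was 2.18 and did not pass (adjusted p = 0.175). With only the groups compared in the fit, the calls in Brd8 KO (adjusted p = 0.0674) and Ezh2 KO (adjusted p = 0.162) were lost. At day 7 Pmaip1 was 7.57, 9.62 and 3.91 CPM in Eed KO and 6.38, 5.2 and 3.8 in NT, and at day 9 2.84, 1.87 and 3.32 in Eed KO and 3.12, 2.48 and 0.71 in NT. Those groups overlapped, and the separation was seen at day 11.

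Aen, a nuclease of apoptotic nuclei, was 59.2, 77.0 and 72.7 CPM in Eed KO at day 11, 61.0, 66.2 and 60.0 in Brd8 KO and 46.9, 57.4 and 44.3 in NT, with no overlap of either KO with NT (0.49 ± 0.12, adjusted p = 0.00233; 0.33 ± 0.12, adjusted p = 0.0485). The call in Eed KO had an adjusted p of 0.0741 when the low-agreement libraries were left out. That in Brd8 KO was lost in 8 of 13 alternatives (adjusted p up to 0.216), among them without any 1 of the Brd8 KO libraries or without NT replicate 1 or 3. Phlda3, a repressor of the survival kinase Akt, rose in Eed KO at day 7 (0.49 ± 0.143, adjusted p = 0.0264, and up to 0.179 without Eed KO replicate 2 or 3 or NT replicate 2 or 3) and at day 11 from 22.8 ± 2.16 to 33.3 ± 1.04 CPM (adjusted p = 0.00529). Apaf1, the scaffold of the apoptosome, rose in Eed KO at day 11 from 69.2 ± 8.5 to 93 ± 5.78 CPM (adjusted p = 0.00104). Bax was 37.2, 35.7 and 31.5 CPM in Eed KO at day 11 and 31.8, 27.4 and 9.15 in NT, where the low value is again NT replicate 3. Its call (0.61 ± 0.206, adjusted p = 0.0286) was lost without that library (adjusted p = 0.28) and without Eed KO replicate 1 (0.0863) or 2 (0.0656), and with only the groups compared (0.242). Bbc3, which encodes the apoptosis activator Puma, was 46.6 ± 13.1 CPM in Eed KO and 32.6 ± 11.2 in NT and did not pass (adjusted p = 0.0558), and Ei24, a protein of the endoplasmic reticulum, was 140 ± 28 against 131 ± 3.08.

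Of the 5 genes of DNA repair and nucleotide supply, 0 passed as higher in any KO comparison; with at most 13.3% of all genes higher, a count of 0 of 5 is near the background. Their largest log2 fold change in Eed KO at day 11 was 0.40. Xpc, the damage sensor of nucleotide excision repair, fell in Brd8 KO at day 7, from 33.3, 38.9 and 44.4 CPM in NT to 21.6, 29.5 and 27.7 (-0.56 ± 0.156, adjusted p = 0.026). That call was lost without Brd8 KO replicate 1 or NT replicate 2 or 3 (adjusted p up to 0.215). Rrm2b fell in Eed KO at day 11 (-0.42 ± 0.157, adjusted p = 0.0482), where groups overlapped and the call was lost in 9 of 13 alternatives, with an adjusted p of 0.476 without NT replicate 3. The median of these 5 genes in Eed KO at day 11 was -0.15 log2 units, where that of the cell cycle genes was 1.02 and that of the genes of death receptors and their signalling 1. Of the 7 genes of metabolism, the ribosome and signalling, Rps27l alone rose in Eed KO at day 11 (all genes 13.3%). Rps27l, the gene of a ribosomal protein variant, was 16.5, 14.6 and 23.7 CPM in Eed KO and 8.75, 11.8 and 7.24 in NT (0.97 ± 0.218, adjusted p = 0.000918), a call lost without the low-agreement libraries (adjusted p = 0.0986). It is closely related in sequence to Rps27, so its counts are uncertain. Sesn2, an inhibitor of mTORC1 like Sesn1, rose at day 9 in Eed KO (0.42 ± 0.111, adjusted p = 0.0201) and in Brd8 KO (0.35, adjusted p = 0.0467). The first was lost without Eed KO replicate 2 or 3 or NT replicate 1 or 3 (adjusted p up to 0.133), and the second without Brd8 KO replicate 2 or NT replicate 1 or 3 (up to 0.517) or with only the groups compared (0.0566). Sesn1, Ak1, Dcxr, Ddit4l and Epha2 did not pass in any KO comparison.

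Days of 1 genotype share no libraries, so that the genes called at different days can be set side by side. All 6 of the genes that rose in Eed KO at day 7 also rose at day 11, where they were 37.5% of the 16 that rose. Over all genes, 241 of the 441 that rose at day 7 (54.6%) rose at day 11, 11.9% of the 2026 there. Between days 7 and 9 of Eed KO, 1 of the 6 (16.7%) rose at both, against 29.5% over all genes, and between days 9 and 11 1 of 2 (50%), against 81.1%. In Ezh2 KO the 1 gene that rose at day 7 did not pass as higher at day 11, where 23.1% of the 13 such genes of the whole table did. In Brd8 KO, where 0 of the 33 rose at day 7, 6 genes rose at both day 9 and day 11 (Ccng1, Eda2r, Aen, Tnfrsf10b, Pidd1 and Gtse1), which was 66.7% of the 9 of each day. Over all genes, 713 rose at both, 60.8% of the 1173 of day 9 and 45.6% of the 1562 of day 11.

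Whether the effect of a KO differed between day 11 and day 7 was tested by the difference of the 2 effects. In Eed KO the effect was more positive at day 11 for 4 of the 33 genes and more negative for 0 (all genes 4.01% and 2.32%). These were Pmaip1 (difference 3.5 ± 0.745, adjusted p = 0.00217), Plk3 (2.12 ± 0.205, adjusted p = 1.09e-08), Gadd45a (1.00 ± 0.279, adjusted p = 0.0228) and Gtse1 (0.58 ± 0.18, adjusted p = 0.0469). In Brd8 KO 3 were more positive and 0 more negative (all genes 2.98% and 1.57%): Pmaip1 (3.15 ± 0.752, adjusted p = 0.00918), Plk3 (1.57 ± 0.205, adjusted p = 5.13e-06) and Gtse1 (0.60 ± 0.181, adjusted p = 0.0479). In Ezh2 KO only Plk3 passed (1.29 ± 0.204, adjusted p = 0.000367), with 1 more positive and 0 more negative against 1.01% and 0.408% of all genes. In Nr6a1 KO 0 of the 33 passed, where 0.112% of all genes did, and DESeq2 called 0. By edgeR 4 of the 33 had an unadjusted p under 0.05, against 7.75% of all genes. The Plk3 difference passed in all 19 alternatives in each of the 3 genotypes, as did the Pmaip1 differences. The Gtse1 difference was lost in 13 of 19 in Eed KO and in 12 of 19 in Brd8 KO, and the Gadd45a difference in 5 of 19. The day 7 and day 11 NT libraries used here are those of the time comparison above, in which Pmaip1, Plk3 and Gtse1 were the 3 genes with the largest falls. Ccng1, Eda2r and Tnfrsf10b did not pass this test in any KO.

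The KO genotypes were also set against each other at day 11. The NT levels do not enter these contrasts, but the NT libraries were part of the fit that gave the scaling and the spread. Between Eed KO and Ezh2 KO, whose targets encode subunits of the same complex, 10 of the 33 genes were higher in Eed KO and 0 lower (all genes 1.53% and 1.35%). The median difference of the 33 genes was 0.35 log2 units, and that of all genes -0.01. Of the 10, the largest differences were those of Tnfrsf10b (27.6 ± 4.86 against 15.2 ± 4.09 CPM, 0.86 ± 0.174, adjusted p = 0.00401), Eda2r (88 ± 12.6 against 53 ± 2.98, 0.73 ± 0.113, adjusted p = 0.000273) and Pidd1 (25.8 ± 3.14 against 15.9 ± 1.1, 0.70 ± 0.201, adjusted p = 0.0493). Plk3 (0.63 ± 0.142, adjusted p = 0.0106) and Phlda3 (0.54 ± 0.144, adjusted p = 0.0339) followed. Pmaip1 (1.20, adjusted p = 0.161), Fas (1.20, adjusted p = 0.685) and Epha2 (0.99, adjusted p = 0.385) had larger differences that did not pass. Ccng1, Trp53, Zmat3, Apaf1 and Trp53inp1 differed by 0.30 to 0.46. Eed KO replicate 3 had the highest Ccng1, Eda2r, Plk3, Tnfrsf10b and Trp53 of its group, and without it only Eda2r was still called. Without Ezh2 KO replicate 3, 2 were called (Eda2r and Apaf1), and without any other 1 of the 6 libraries 6 or 7. Without the low-agreement libraries 3 genes were called (Eda2r, Tnfrsf10b and Zmat3). With only the groups compared in the fit, the calls of Trp53inp1, Apaf1 and Trp53 were lost (adjusted p = 0.15, 0.106 and 0.115). Eda2r passed in all 13 alternatives. Mdm2 did not pass in this comparison either.

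Between Brd8 KO and Eed KO at day 11, 0 of the 33 genes passed by edgeR, where 0.342% of all genes did, and DESeq2 called 1. An unadjusted p under 0.05 by edgeR was seen for 11 of the 33 (10 of them lower in Brd8 KO), against 8.13% of all genes. Between Brd8 KO and Ezh2 KO 0 passed, where 0.0132% of all genes did, and DESeq2 called 0. There 4 of the 33 had an unadjusted p under 0.05 by edgeR, against 7.47% of all genes. With so few genes of the whole table called, these counts of 0 are close to the background.

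**Figure D4:**
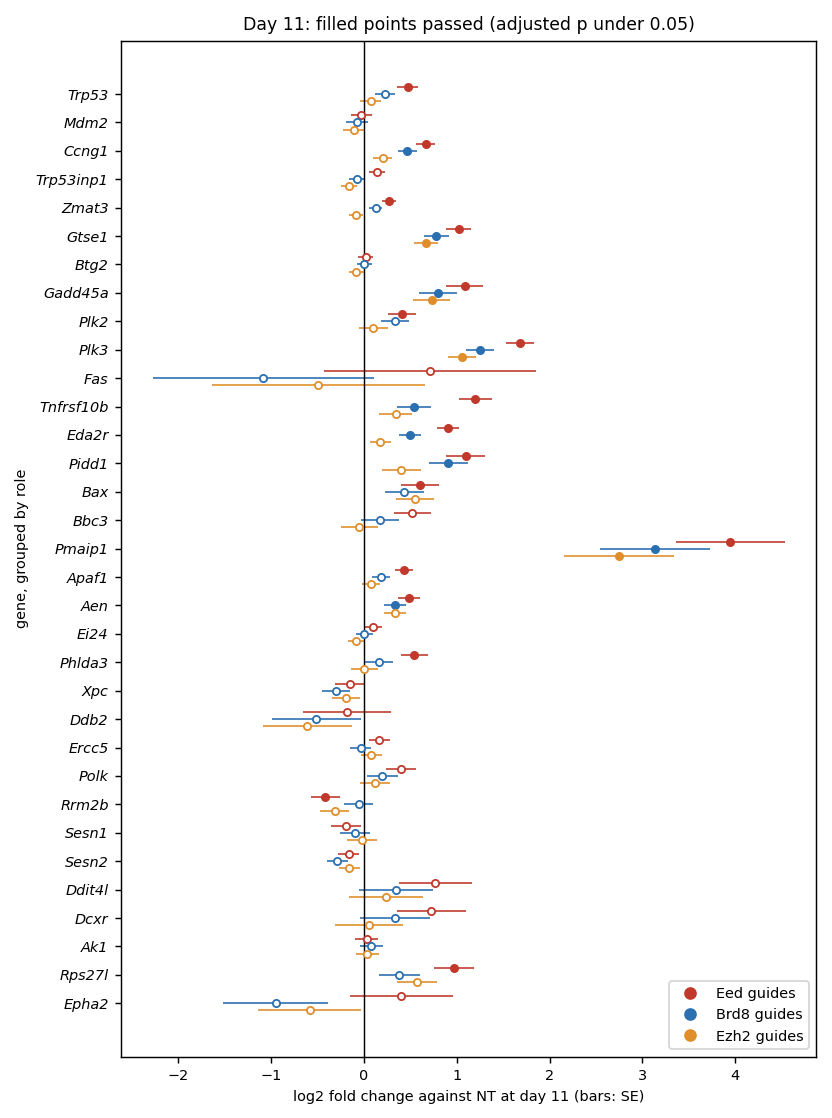
Log2 fold change with SE bars of the 33 genes against NT at day 11 in Eed KO (red), Brd8 KO (blue) and Ezh2 KO (orange); filled points passed at an adjusted p under 0.05. For Tnfrsf10b, Eda2r, Plk3 and Ccng1 the red point lies furthest to the right and the orange point furthest to the left, Pmaip1 lies above 2.7 in all 3, and Mdm2 and Btg2 lie near 0.

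Other genes of the p53 pathway that are not among the 33 were looked up from a list of 39, of which 38 were in the table and tested. In Eed KO at day 11, 11 rose and 4 fell (all genes 13.3% and 10.6%). The counts that fell, here and in the other KO genotypes below, are near the shares of all genes. Cdkn1a, the gene of the cyclin-dependent kinase inhibitor p21, rose from 28.2 ± 1.42 to 84.2 ± 6.35 CPM (1.58 ± 0.129, adjusted p = 3.28e-11), and Chek1, a checkpoint kinase gene, from 9.9 ± 1.03 to 20.1 ± 2.72 (adjusted p = 2.28e-05). In Brd8 KO 6 rose and 4 fell at day 9 (all genes 7.72% and 7.81%), and 9 rose and 2 fell at day 11 (all genes 10.3% and 7.48%), with Cdkn1a at 65.7 ± 6.26 CPM (1.22 ± 0.129, adjusted p = 7.58e-09). In Ezh2 KO at day 11, 6 rose and 1 fell (all genes 5.22% and 2.7%), with Cdkn1a at 49 ± 4.61 CPM (0.79 ± 0.128, adjusted p = 6.07e-05). Mdm4, the partner of Mdm2 in holding p53 down, did not pass in any of the 4 KO genotypes at day 11 (174.6 ± 7.96 CPM in Eed KO and 174.5 ± 13.1 in NT at day 11). In Nr6a1 KO 0 of the 38 passed at any day (all genes at most 0.151%).

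Proliferation genes moved in the same comparisons. In Eed KO 8, 12 and 19 of 20 rose at days 7, 9 and 11, in Ezh2 KO 0, 0 and 17, in Brd8 KO 2, 20 and 19, and in Nr6a1 KO 0 at each day. Of all tested genes, 2.9%, 2.99% and 13.3% rose in Eed KO at these days and 0.0855%, 0% and 5.22% in Ezh2 KO. In Brd8 KO the shares were 1.3%, 7.72% and 10.3%, and in Nr6a1 KO at most 0.151% passed. Their summed level at day 11 was 2083 to 2384 CPM in Eed KO, 1845 to 2295 in Brd8 KO, 1665 to 1932 in Ezh2 KO, 1103 to 1429 in Nr6a1 KO and 1135 to 1200 in NT. Of 17 tested ATF4 response genes, which answer amino acid and endoplasmic reticulum stress, 7 rose and 1 fell in Eed KO at day 11 and 8 rose and 1 fell in Brd8 KO. The summed level of all 18 genes of that list at day 11 was 901 to 1080 CPM in Eed KO and 1083 to 1130 in Brd8 KO. It was 1005 to 1087 in Ezh2 KO, 881 to 916 in Nr6a1 KO and 833 to 895 in NT. Of 15 immediate early genes 7 rose in Eed KO, 5 in Brd8 KO and 0 in Ezh2 KO at day 11. The shares of all genes that rose at day 11 are given above, and 10.6% fell in Eed KO and 7.48% in Brd8 KO. The part of each of these lists in the changes of the p53 targets was not tested.

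Markers of other cell types moved in both directions in the KO cells. At day 11, 13.3% of all tested genes rose and 10.6% fell in Eed KO, 5.22% and 2.7% in Ezh2 KO, and 10.3% and 7.48% in Brd8 KO. In Brd8 KO at day 9, 7.72% rose. With 5 to 10 genes in a list, counts of 0 or 1 are near these shares. Of 8 epithelium markers 6 rose in Eed KO at day 11, 1 in Ezh2 KO and 0 in Brd8 KO, with summed levels of 182 to 348 CPM in Eed KO, 12.9 to 48.5 in Ezh2 KO, 7.97 to 36.5 in Brd8 KO and 15.8 to 28.3 in NT. The same 6 of 8 were higher in Eed KO than in Ezh2 KO (all genes 1.53%), beside the 10 p53 targets given above. They include Trp63, the gene of the p53 relative p63 (29.2 ± 4.91 CPM in Eed KO against 1.71 ± 1.02 in NT at day 11), a gene that is also on the pathway list, and Perp, a target of p63 and p53 on the pathway list, rose too (30.4 ± 8 against 4.57 ± 3.03 CPM). Of 6 muscle markers 4 rose in Eed KO, 3 in Ezh2 KO and 4 in Brd8 KO at day 11, and 5 in Brd8 KO at day 9. Their summed level at day 11 was 70.1 to 91.1 CPM in Eed KO, 116 to 156 in Brd8 KO and 0 to 8.26 in NT. Of 5 neural crest markers 4, 3 and 3 rose in Eed, Ezh2 and Brd8 KO at day 11. The haemoglobin gene Hba-a1 was at 0 in the NT, Eed KO, Ezh2 KO and Brd8 KO libraries. It is 1 of 7 blood and endothelium markers, which as a list were detected. Their summed level at day 11 was 34.8 to 57.0 CPM in Eed KO, 32.9 to 43.0 in Ezh2 KO, 34.8 to 49.6 in Brd8 KO and 29.8 to 42.2 in NT, with overlapping ranges. Of 7 tested glia markers 0 rose and 4, 2 and 3 fell in Eed, Ezh2 and Brd8 KO at day 11, with summed levels over the list of 246 to 283 CPM in Eed KO, 300 to 405 in Ezh2 KO, 316 to 399 in Brd8 KO and 470 to 588 in NT. Of the 10 neural progenitor markers 2 rose and 4 fell in each of these 3 genotypes at day 11. Of 8 neuron markers 1 fell in Eed KO, 1 in Brd8 KO and 0 in Ezh2 KO at day 11, with 3959 to 4204 CPM in Eed KO and 4598 to 4978 in NT. Of 7 motor neuron markers 2, 1 and 4 rose in Eed, Ezh2 and Brd8 KO at day 11. The part of the other cell types in the changes of the p53 targets was not tested.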

How the data were processed

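The authors deposited estimated counts per gene symbol for 41 libraries of total RNA in 15 groups; 29525 values (2.95%, in 2426 genes) were fractional, and all were rounded to whole counts. The genome mm10 and DESeq2 are named per the submitters' processing notes. Aligner, counter, annotation and the strand used in counting were not given in the sources used here. Library source is labelled genomic, while the labels' protocols describe RNA.

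Of 24410 genes, 15204 passed edgeR's filterByExpr. With R 4.3.3 and edgeR 4.0.16, 1 quasi-likelihood fit over all libraries (TMM scaling, a common coefficient of biological variation of 0.182 and a prior of 11.5 degrees of freedom) gave 20 comparisons. P-values were Benjamini-Hochberg adjusted per comparison over all tested genes, with a threshold of 0.05. The SE of a log2 fold change was derived from the test, as its absolute value divided by the square root of the F statistic. The 95% intervals were built from this SE and the t distribution. The scripts were tested on simulated data. A count of 0 allows up to 3 counts, or 0.0785 to 0.35 CPM by library; this covers counting error only. Exon lengths and gene positions came from a GENCODE annotation of GRCm38. No 2 libraries held identical values.

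The members and lists were chosen with earlier results of these data known. The rule for named genes was Trp53, Mdm2 and every member called in a KO comparison, with full statistics for up to 5 per comparison and values in every library for those called most often. Further per-library values, other statistics and Mdm4, Perp, Trp63 and Chek1 were added after their values were seen. Alternatives were DESeq2 1.42.0, DESeq2 size factors in edgeR, no low-count filter, a replicate block, no Rn45s, no low-agreement libraries, only the groups compared, and each library left out.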

Additional observations from a re-analysis of the deposited data

Results flagged for a closer look

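In 8 cases the effect of a KO differed between day 11 and day 7 by the test of the difference itself (edgeR, adjusted over all genes). In Eed KO the log2 fold change against NT was higher at day 11 by 3.5 for Pmaip1 (adjusted p = 0.00217), by 2.12 for Plk3 (adjusted p = 1.09e-08), by 1.00 for Gadd45a (adjusted p = 0.0228) and by 0.58 for Gtse1 (adjusted p = 0.0469). In Brd8 KO it was higher by 3.15 for Pmaip1 (adjusted p = 0.00918), by 1.57 for Plk3 (adjusted p = 5.13e-06) and by 0.60 for Gtse1 (adjusted p = 0.0479). In Ezh2 KO it was higher by 1.29 for Plk3 (adjusted p = 0.000367). The Pmaip1 and Plk3 differences were called in all 19 alternatives, that of Gadd45a was lost in 5, and those of Gtse1 were lost in 13 (Eed KO) and 12 (Brd8 KO).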

How the results depend on the processing

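Of 92 calls of single genes, 47 held in every alternative, 45 were lost in at least 1 and 0 changed sign. The cause was not tested. The 92 include the 24 of NT over time, which all held but those of Rrm2b and Dcxr. Among the calls of a KO against NT, more were lost in at least 1 alternative than held in all. Of the 10 between Eed KO and Ezh2 KO, that of Eda2r alone held. The number of the 33 genes called moved by over 1.5 times as follows. Without a low-count filter it was 5 for Eed KO at day 9 (2 in the fit reported), 3 for Ezh2 KO (1) and 5 for Brd8 KO (1) at day 7, 1 for Nr6a1 KO at days 7 and 9 (0), 7 for the Eed day difference (4), 2 for the Ezh2 day difference (1) and 2 for Brd8 KO against Eed KO (0). With only the groups compared it was 1 for Eed KO at day 9, 4 for Ezh2 KO, 6 for Brd8 KO and 1 for Nr6a1 KO at day 7, 5 for Brd8 KO at day 11 (9) and 2 for the Eed day difference. By DESeq2 it was 2 for Ezh2 KO and 4 for Brd8 KO at day 7, 2 for the Ezh2 day difference and 1 for Brd8 KO against Eed KO. Without the low-agreement libraries it was 3 for Brd8 KO at day 7, 2 for the Ezh2 day difference and 3 for Eed KO against Ezh2 KO (10). With a replicate block it was 3 for Brd8 KO at day 7; the block moved no other count by over 1.5 times, with 17 for Eed KO at day 11 (17) and 6 for the Eed day difference (4). No pairing by replicate number was seen. Of 32 same-numbered pairs 0 had deviations correlated above 0.1 (-0.0278 to 0.0798, median 0.00596, and -0.0651 to 0.0591 for other numbers). With so few libraries per group, and NT libraries shared between comparisons, these values cannot exclude a pairing. With each library left out in turn, the number ranged from 1 to 5, 0 to 4 and 14 to 18 in Eed KO at days 7, 9 and 11, from 0 to 1, 0 to 0 and 3 to 5 in Ezh2 KO, from 0 to 3, 2 to 10 and 6 to 9 in Brd8 KO, and was 0 in Nr6a1 KO. It was 23 to 24 for NT over time, 2 to 5, 1 to 2, 2 to 3 and 0 for the Eed, Ezh2, Brd8 and Nr6a1 day differences, 1 to 7 for Eed KO against Ezh2 KO, 0 to 1 for Brd8 KO against Eed KO and 0 for Brd8 KO against Ezh2 KO. Depth limits Pmaip1 in NT at day 11 (10 counts in all) and Fas.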
